A study of Arabidopsis thaliana with 32 samples.

Results

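The genes described here are the nuclear genes of plastid ribosomal proteins. They are defined by gene identifier and comprise 40 genes, of which 39 are among the 28394 genes found across the tables. Of these, 27 encode proteins of the large subunit (25 core *PRPL* proteins with *PSRP5* and *PSRP6*) and 13 encode proteins of the small subunit (9 core *PRPS* proteins with *PSRP2*, *PSRP3/1*, *PSRP3/2* and *PSRP4*). A row was found in all 6 tables for 38 of the 40 genes, 24 core large-subunit, 8 core small-subunit and 6 plastid-specific ones, and all 38 passed the filter on low values in every fit. *PRPS17* was not analysed here. *PRPL12B* had a row in the sextuple monosome table only, with values near 0 in the 3 wild-type libraries and of 6.42, 0.14 and 0 in the sextuple mutant, and stayed below the filter.

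Messages bound to a single ribosome (monosome fraction) and to several ribosomes (polysome fraction) were separated on sucrose gradients and sequenced from whole 10-day-old *Arabidopsis thaliana* seedlings. In the AA comparison, Col-0 wild type was moved from plates into liquid medium and given 50 µM antimycin (AA, which blocks complex III of the mitochondrial respiratory chain) for 5 h by the labels or DMSO alone (CK). The study's methods give a shorter exposure and a preceding night in the dark for both groups. In the other comparisons, *2OX*, a single line that overexpresses *MCU2* fused to YFP under the constitutive 35S promoter, and the sextuple mutant, with lesions in all 6 *MCU* genes, were set against untreated Col-0 from plates. The *MCU* genes encode calcium uniporters of the inner mitochondrial membrane. Each group had 3 libraries per fraction in each comparison. *2OX* was set against wild-type replicates 2, 3 and 4 and the sextuple mutant against replicates 1, 2 and 4, so that these comparisons share wild-type replicates 2 and 4. The labels do not say whether replicates came from separate cultures, and the p-values measure only the spread between these samples.

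Plastid ribosomes resemble those of bacteria and translate the messages of the plastid genome, among them subunits of the photosystems, the ATP synthase and Rubisco. Their RNAs and part of their proteins come from the plastid genome, while the remaining proteins are encoded in the nucleus, translated on cytosolic ribosomes and imported. The polysomes measured here therefore carry the messages of these genes, not the ribosomes that their products build. The large subunit holds the peptidyl transferase centre and the stalk that recruits translation factors, and the small subunit decodes the message. Plastid-specific ribosomal proteins (PSRPs) have no counterpart in the ribosome of *Escherichia coli*.

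Upstream sequences of 4 of the genes are given first, because elements named site II recur in the promoters of ribosomal protein genes in plants and because *PRPL19.1* and 3 genes called higher in monosome RNA after AA share them. Each run holds the 250 bases before the annotated start, in gene direction, from RefSeq's TAIR10.1 assembly. Capitals mark matches on either strand to site II (TGGGCC or TGGGCT), the I-box (GATAAG) and the telo-box (AAACCCTA). The run of *PRPL19.1* lies at chr4:9779974-9780223 on the plus strand. On the minus strand lie those of *PRPL15* at chr3:9492656-9492905, *PRPS5* at chr2:14302497-14302746 and *PRPS10* at chr3:4221667-4221916.
PRPL19.1: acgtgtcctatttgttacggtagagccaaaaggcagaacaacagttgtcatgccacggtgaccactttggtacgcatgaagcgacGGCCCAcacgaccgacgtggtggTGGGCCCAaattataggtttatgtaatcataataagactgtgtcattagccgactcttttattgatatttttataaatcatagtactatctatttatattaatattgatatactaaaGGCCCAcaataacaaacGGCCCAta
PRPL15: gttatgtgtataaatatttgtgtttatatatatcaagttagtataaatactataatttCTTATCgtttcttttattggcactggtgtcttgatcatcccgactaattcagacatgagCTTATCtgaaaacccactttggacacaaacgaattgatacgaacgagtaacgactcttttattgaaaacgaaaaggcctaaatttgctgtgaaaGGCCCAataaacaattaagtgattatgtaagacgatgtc
PRPS5: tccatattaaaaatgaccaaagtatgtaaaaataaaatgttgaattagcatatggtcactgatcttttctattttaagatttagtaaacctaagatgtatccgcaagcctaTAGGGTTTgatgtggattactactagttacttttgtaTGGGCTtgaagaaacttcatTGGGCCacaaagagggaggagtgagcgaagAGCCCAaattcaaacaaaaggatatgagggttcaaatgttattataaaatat
PRPS10: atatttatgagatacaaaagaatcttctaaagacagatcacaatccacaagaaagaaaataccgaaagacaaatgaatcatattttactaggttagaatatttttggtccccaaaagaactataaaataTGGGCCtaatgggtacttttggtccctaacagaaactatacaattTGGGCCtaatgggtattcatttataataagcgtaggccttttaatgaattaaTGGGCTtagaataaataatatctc
*PRPL19.1* holds 5 site II matches, of which a pair on opposite strands overlap, and the match nearest to the start lies 8 bases before it. *PRPL15* holds 1 site II match, 39 bases before the start, and 2 I-boxes. *PRPS5* holds 3 site II matches and a telo-box, and *PRPS10* holds 3 site II matches.

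Over windows from 250 bases before to 50 bases after the start, site II was found in 20 of the 40 genes (50.0%), against 21.7% of 27443 windows of protein-coding genes. It was found in 10 of the 27 large-subunit genes and in 10 of the 13 small-subunit genes. The I-box was found in 18 of the 40, 13 of the large and 5 of the small subunit, against 14.6% of all windows. The telo-box was present in 6 genes (15.0%, against 6.22%), the G-box (CACGTG) in 4 (10.0%, against 7.68%) and the evening element (AAAATATCT) in 2 (5.0%, against 2.82%). Both site II and the I-box were present in 8 genes, site II without the I-box in 12, the I-box without site II in 10, and neither in 10. In some genes all matches to an element lay after the start, as with the I-boxes of *PRPL3* and *PRPL12A* and site II of *PRPL11*. A match is a stretch of letters and not a binding site that was measured.

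**Figure D1:**
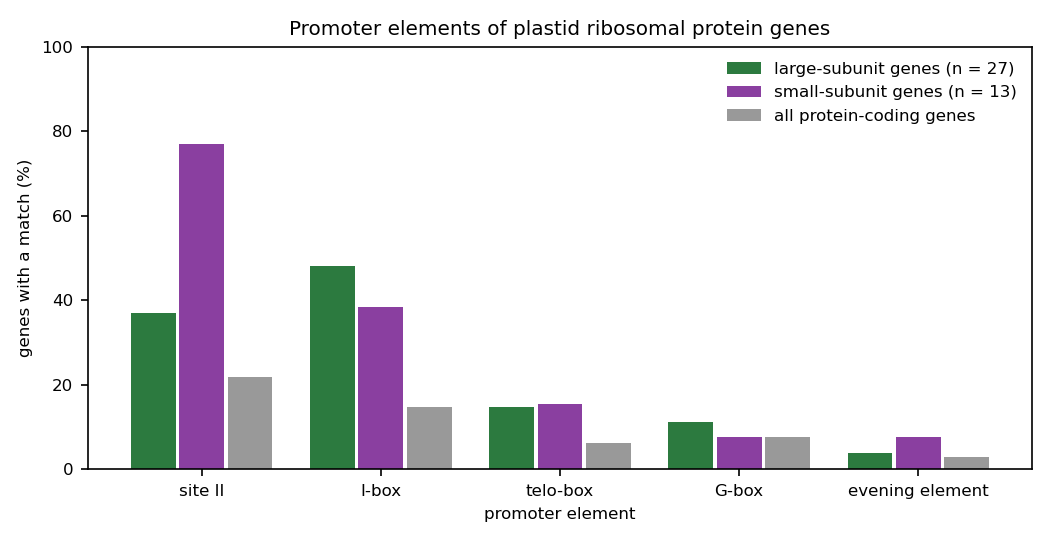
Share of genes (%, vertical axis) with a match to each promoter element (horizontal axis) in the window from 250 bases before to 50 after the start, for 27 large-subunit genes (green), 13 small-subunit genes (purple) and all 27443 protein-coding genes (grey). Site II is in 10 of 13 small-subunit and 10 of 27 large-subunit genes, and the I-box is in 13 of 27 large-subunit genes.

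The values are the authors' adjusted signal per gene and library, whose sums per library were 21.4 to 45.1 in units of 1000000. The depth in reads is unknown. Those of the 40 genes with a row took 0.34% to 1.00% of the sum in monosome libraries and 0.53% to 1.47% in polysome libraries, and nuclear ribosomal RNA genes 4.08% to 21%. The leaf markers *RBCS1A* (Rubisco small subunit), *LHCB1.1* and *LHCB1.2* (antenna proteins) were high in the libraries of all groups, as in *RBCS1A* with 87529 to 118978 in CK monosome RNA. *MCU2* lay at 549 to 800 in monosome RNA of *2OX* and at 177 to 269 in wild type. In the sextuple mutant, *MCU6* lay at 148 to 246 in monosome RNA against 319 to 489 in wild type, while *MCU2* overlapped with wild type, with 153 to 211 against 210 to 333.

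Levels were compared between genes as adjusted values per kilobase of transcript in the CK libraries. In monosome RNA the highest were *PRPL29* (18153 ± 2468, SD, n = 3), *PSRP4* (9298 ± 2015) and *PRPL34* (8107 ± 426), and the lowest *PRPL28* (1027 ± 213), *PRPL10* (820 ± 71) and *PSRP3/2* (175 ± 44). In polysome RNA *PSRP4*, related to the small bacterial protein Thx, led with 22993 ± 2443, before *PRPL29* (13966 ± 394) and *PRPS6* (13605 ± 1158), and the lowest were *PRPL4* (1906 ± 166), *PSRP5* (1367 ± 199) and *PSRP3/2* (418 ± 19). The other genes lay between these ends, and in each fraction the ranges of 30 of the 37 neighbours in rank overlapped. The median level per kilobase was 3450 for the core large subunit, 2750 for the core small subunit and 1633 for the PSRPs in monosome RNA. In polysome RNA these medians were 6676, 5809 and 4303. When the log2 ratio of the large-subunit to the small-subunit median was taken in each CK library, its mean was 0.35 ± 0.13 in monosome and 0.17 ± 0.07 in polysome RNA (SD, n = 3), and per kilobase of coding length the mean was 0.13 and 0.10.

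**Figure D2:**
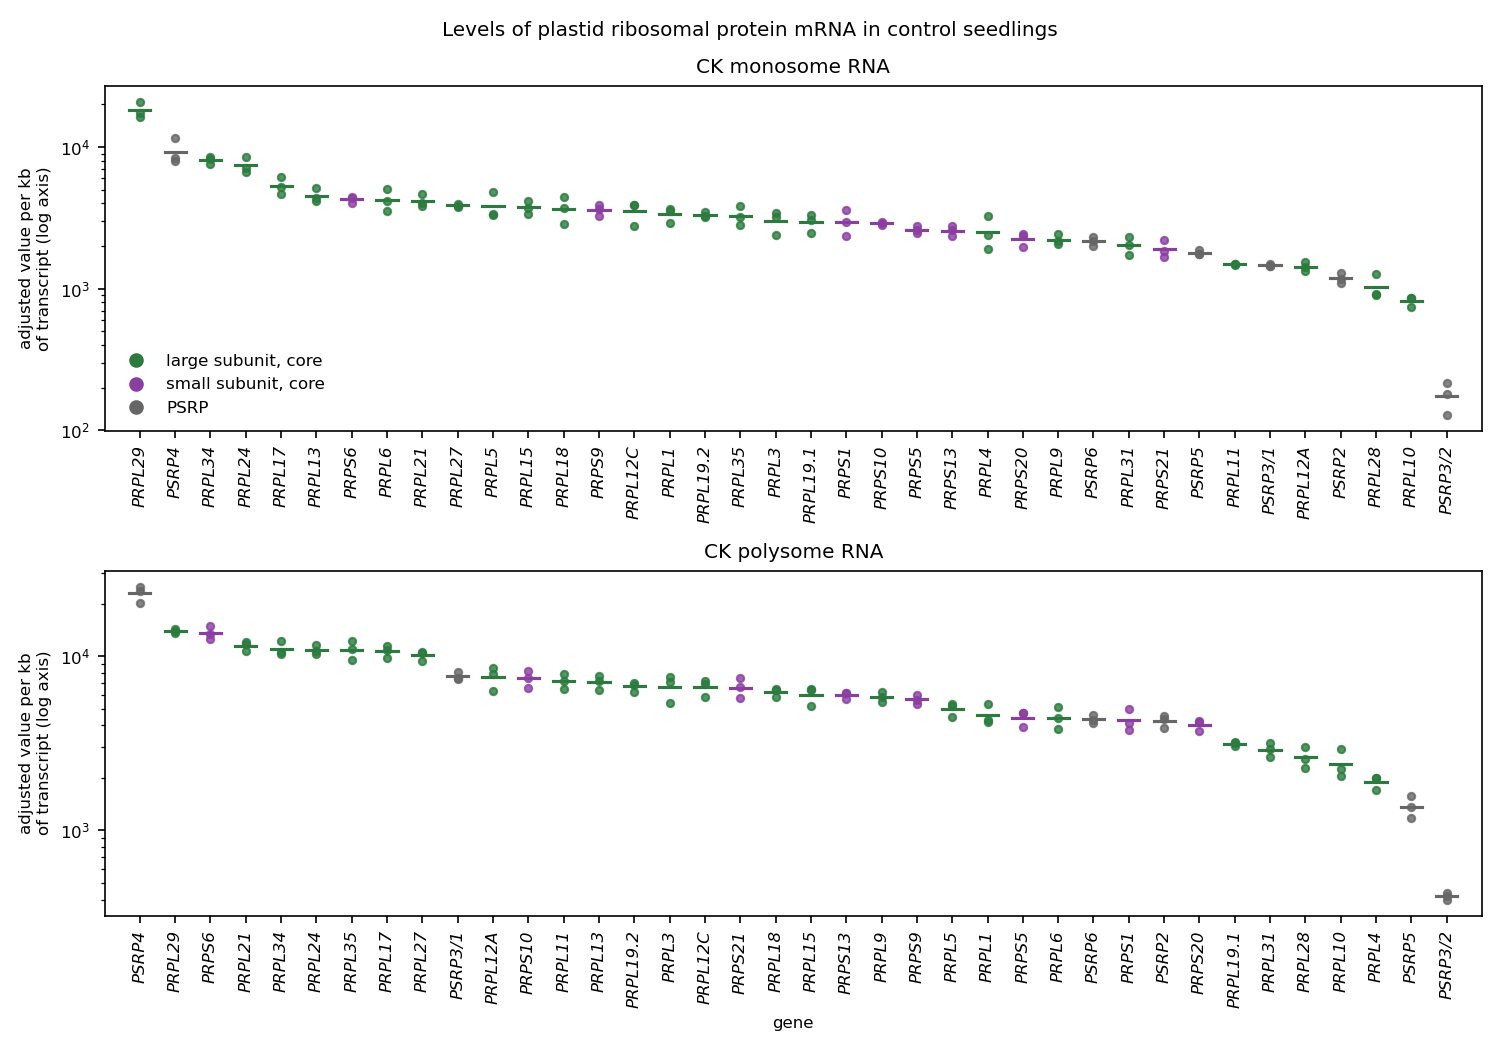
Adjusted value per kilobase of transcript (log axis) of 38 genes in the 3 CK libraries of monosome RNA (top) and polysome RNA (bottom), ordered by mean, with points for libraries and bars for means. *PRPL29* (18153) and *PSRP4* (22993) have the highest means and *PSRP3/2* the lowest, with 175 and 418.

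In CK the messages stood high in polysomes relative to other genes. The log2 ratio of the polysome to the monosome value of libraries with the same number, relative to the median of all genes, was above 0 for 35 of the 38 genes in each CK replicate, with medians of 1.14, 1.11 and 1.07. The medians of the core large subunit were 1.11, 0.88 and 1.02, those of the core small subunit 1.21, 1.15 and 1.24, and those of the PSRPs 1.40, 1.83 and 1.20. Nuclear genes of cytosolic ribosomal proteins had medians of 0.70, 0.74 and 0.72, and those of mitochondrial ribosomal proteins 0.64, 0.62 and 0.67. The plastid set was thus above both other sets in each CK replicate. In untreated wild type it was above both in replicates 2, 3 and 4, but in replicate 1 its median of 0.91 lay below the 1.01 of the cytosolic set. The highest ratios were those of *PRPL12A* (2.56 ± 0.17, SD, n = 3), *PSRP3/1* (2.54 ± 0.04) and *PRPL11* (2.44 ± 0.13), and the lowest those of *PSRP5* (-0.25 ± 0.21), *PRPL29* (-0.21 ± 0.18) and *PRPL4* (-0.21 ± 0.30). Levels of the same gene in separately scaled fractions set these ratios, and only their order within a replicate can be read.

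After AA, many plastid ribosomal protein genes were higher in monosome RNA, in both subunits, and none was called in polysome RNA. Monosome RNA of 15 of the 38 genes rose, 10 core large-subunit genes, 4 core small-subunit genes and *PSRP3/1*, and that of *PSRP5* fell (limma, adjusted p under 0.05). Over all 21095 genes of the fit, 11.6% were called higher and 10.4% lower. The median log2 change of the 38 genes was 0.31, a 1.24-fold higher value, against -0.02 for all genes. The estimate was above 0 in 33 of the 38 genes, against 47.9% of all genes. AA and CK libraries did not overlap in 20 of the 38 genes, 19 higher and 1 lower, against 18.4% and 19.0% of all genes. With quantile normalization 6 of the genes were called higher and 2 lower, and the median of the 38 genes was 0.12, where 2180 of all genes were called higher and 2255 lower. With values scaled again to a common upper quartile, 11 were called higher and 1 lower, and the split over all genes went from 2452 higher and 2193 lower to 1898 higher and 2762 lower, with an all-gene median of -0.11.

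**Figure D3:**
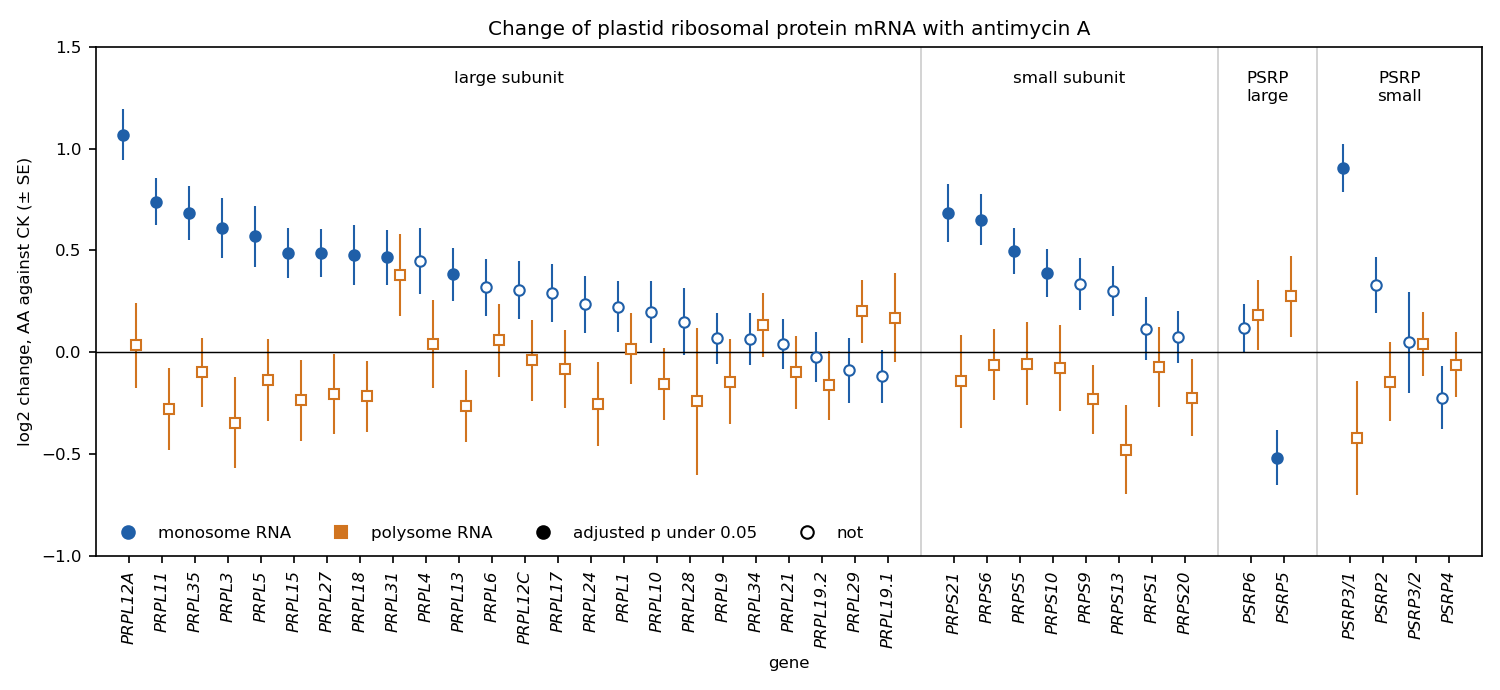
Log2 change of 38 genes (horizontal axis) between AA and CK, with SE, in monosome RNA (blue circles) and polysome RNA (orange squares), filled where the adjusted p was under 0.05. Monosome estimates are filled for 15 genes above 0 and for *PSRP5* below 0, and polysome estimates are filled for no gene.

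In the large subunit *PRPL12A* and *PRPL11* had the largest changes. Coordinates are those of the RefSeq TAIR10.1 annotation. *PRPL12A* (AT3G27830, chromosome 3, 10318455 to 10319920) encodes the stalk protein that in bacteria recruits elongation factors, and its monosome values were 1335, 1441 and 1554 in CK and 3278, 2718 and 3095 after AA. They rose 2.10-fold (log2 change 1.07 ± 0.13 SE, limma adjusted p = 1.2e-05). Each AA library was above each CK library by a wide margin. *PRPL11* (AT1G32990, chromosome 1, 11955656 to 11957402), the protein at the base of the stalk in bacteria, rose from 1610, 1646 and 1655 to 2728, 2791 and 2679 (0.74 ± 0.12 SE, limma adjusted p = 0.00021), with a narrow spread in both groups. *PRPL12C* (AT3G27850), a copy of *PRPL12A* on the same chromosome, had 2671, 3731 and 3750 in CK and 3940, 4578 and 3904 after AA (0.30 ± 0.14 SE), which did not pass adjustment (limma adjusted p = 0.14). *PRPL1* had 5084, 5276 and 4230 in CK and 5346, 5688 and 5943 after AA, without a call. *PRPL10*, which anchors the stalk in bacteria, had an estimate of 0.20 ± 0.15 SE and was not called.

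Other large-subunit genes that rose encode proteins spread over the subunit. *PRPL35* (AT2G24090) rose from 2404, 2736 and 3275 to 4252, 4234 and 4961 (0.68 ± 0.13 SE, limma adjusted p = 0.0014). *PRPL3* (AT2G43030), whose bacterial counterpart reaches towards the peptidyl transferase centre, rose from 2589, 3692 and 3514 to 4261, 5541 and 5056 (0.61 ± 0.15 SE, limma adjusted p = 0.0064). In both genes the groups did not overlap. *PRPL5* (AT4G01310), which binds 5S ribosomal RNA in bacteria, rose from 3729, 5415 and 3799 to 6250, 7245 and 5527, where AA replicate 3 lay just above CK replicate 2. Its call (0.57 ± 0.15 SE, limma adjusted p = 0.012) was lost without AA replicate 2 (adjusted p = 0.074) or CK replicate 1 (0.071). *PRPL15* (AT3G25920), an assembly protein of the subunit in bacteria, rose from 3884, 4748 and 4278 to 5782, 6393 and 5884 (0.49 ± 0.12 SE, limma adjusted p = 0.0079). *PRPL27* (AT5G40950), whose bacterial counterpart lies near the peptidyl transferase centre, rose from 3606, 3794 and 3627 to 4857, 5626 and 4997 (0.49 ± 0.12 SE, limma adjusted p = 0.0062). Both had tight groups about 1.4-fold apart.

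The smallest calls of the large subunit depended on single libraries. *PRPL18* (AT1G48350), another 5S ribosomal RNA binder in bacteria, rose from 2553, 3987 and 3336 to 4729, 4726 and 4091 (0.48 ± 0.15 SE, limma adjusted p = 0.029), and the call was lost without AA replicate 1 (adjusted p = 0.090), AA replicate 2 (0.10) or CK replicate 1 (0.17). *PRPL31* (AT1G75350) rose from 1464, 1720 and 1967 to 2160, 2364 and 2562 (0.47 ± 0.14 SE, limma adjusted p = 0.020), and was lost without AA replicate 2 (adjusted p = 0.061), AA replicate 3 (0.069) or CK replicate 1 (0.11). *PRPL13* (AT1G78630), an early assembly protein in bacteria, rose from 5754, 7117 and 6065 to 8596, 8717 and 7333 (0.38 ± 0.13 SE, limma adjusted p = 0.042), and was lost without AA replicate 1 (adjusted p = 0.13), AA replicate 2 (0.15), CK replicate 1 (0.17) or CK replicate 3 (0.086). Each of these genes kept non-overlapping groups in the full set of libraries.

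In the small subunit, *PRPS21* and *PRPS6* had the largest changes. *PRPS21* (AT3G27160), the gene known as *GHS1*, rose from 1784, 2334 and 1958 to 2987, 3931 and 2882 (0.68 ± 0.14 SE, limma adjusted p = 0.0025). *PRPS6* (AT1G64510), of the platform of the subunit in bacteria, rose from 3959, 4080 and 3691 to 6431, 6788 and 5279 (0.65 ± 0.13 SE, limma adjusted p = 0.0013). Neither gene's groups overlapped. *PRPS5* (AT2G33800), which lines the entry of the message in bacteria, rose from 3218, 3632 and 3402 to 4711, 4927 and 4812 (0.50 ± 0.11 SE, limma adjusted p = 0.0047). *PRPS10* (AT3G13120), of the head of the subunit in bacteria, rose from 4239, 4442 and 4395 to 5274, 6358 and 5552 (0.39 ± 0.12 SE, limma adjusted p = 0.026), a call that was lost without AA replicate 2 (adjusted p = 0.13), CK replicate 1 (0.086) or CK replicate 2 (0.053). The remaining core small-subunit genes, *PRPS9*, *PRPS13*, *PRPS1* and *PRPS20*, had estimates from 0.07 to 0.34 that did not pass adjustment.

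The plastid-specific genes went in different directions. *PSRP3/1* (AT1G68590, chromosome 1, 25757404 to 25758411), related to the cyanobacterial protein Ycf65, rose from 1357, 1392 and 1351 to 2535, 2683 and 2462 (0.90 ± 0.12 SE, limma adjusted p = 3.7e-05). Its copy *PSRP3/2* had values of 293, 175 and 246 in CK and 249, 266 and 210 after AA (0.05 ± 0.25 SE). The copy at the higher level was thus called and the copy at the lower level was not, and the difference between them was not tested. *PSRP5* (AT3G56910, chromosome 3, 21069411 to 21070356), a protein of the large subunit, fell from 1300, 1221 and 1220 to 809, 964 and 842, a log2 change of -0.52 ± 0.14 SE (limma adjusted p = 0.011). *PSRP2*, which carries RNA-binding motifs, *PSRP4* and *PSRP6* had estimates of 0.33, -0.22 and 0.12 without a call. Among the duplicated *PRPL19* genes, *PRPL19.1* had 3047, 4093 and 3781 in CK and 3124, 3397 and 3474 after AA (-0.12 ± 0.13 SE), and *PRPL19.2* had 3237, 3511 and 3274 in CK and 2966, 3722 and 3193 after AA (-0.03 ± 0.12 SE). Both overlapped between the groups.

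**Figure D4:**
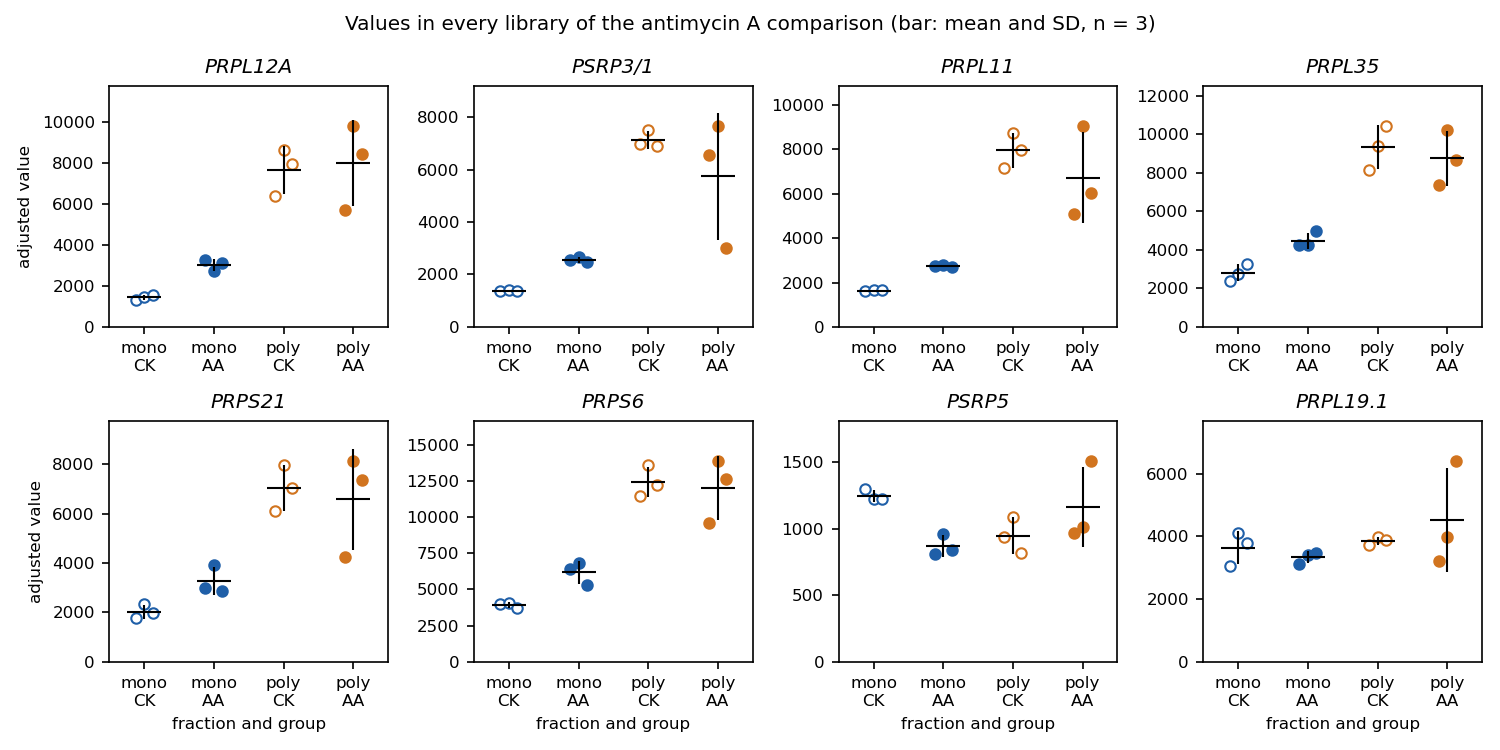
Adjusted values (vertical axis, from 0) of 8 genes in every library of the AA comparison, by fraction and group, with points for libraries and bars for mean and SD (n = 3). In monosome RNA 6 of the genes are higher in each AA library, *PSRP5* is lower in each, and *PRPL19.1* overlaps. In polysome RNA the groups overlap in all 8.

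In polysome RNA after AA, 0 of the 38 genes passed the limma test, 0 had an unadjusted p under 0.05, and 0 had groups that did not overlap. Over all 20614 genes, 8.48% were called higher and 10.4% lower, 15.4% and 16.9% had an unadjusted p under 0.05 in either direction, and 18.0% and 19.7% had groups that did not overlap. The median log2 change was -0.10, with 27 of 38 estimates below 0 against 49.3% of all genes. The largest estimates of the core small subunit were those of *PRPS13*, *PRPS9* and *PRPS20*. *PRPS13*, which reaches towards the large subunit in bacteria, had 7578, 8246 and 8217 in CK and 5407, 8388 and 4179 after AA (-0.48 ± 0.22 SE, limma adjusted p = 0.16). *PRPS9* had an estimate of -0.23 ± 0.17 SE and *PRPS20* of -0.23 ± 0.19 SE. In the core large subunit, *PRPL31* had 2234, 2476 and 2693 in CK and 2360, 3270 and 4254 after AA (0.38 ± 0.20 SE), *PRPL3* had 5860, 7677 and 8253 in CK and 3940, 7276 and 6293 after AA (-0.35 ± 0.22 SE), and *PRPL11* had 7179, 8743 and 7962 in CK and 5111, 9052 and 6037 after AA (-0.28 ± 0.20 SE). AA libraries lay on both sides of the CK libraries in *PRPS13* and *PRPL11*, and the ranges of the groups overlapped in *PRPL31* and *PRPL3*.

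The AA polysome libraries differed among themselves more than the CK libraries. Relative to all genes, the core large subunit lay at -0.39 in AA replicate 1, at 0.16 in replicate 2 and at -0.13 in replicate 3, and the core small subunit at -0.57, 0.15 and 0.02. CK polysome libraries lay between -0.13 and 0.11 for both subunits. Without AA replicate 1 the median log2 change of the 38 genes was 0.07 and *PRPL31* was called (0.60, limma adjusted p = 0.036). Without AA replicate 2 the median was -0.23 and *PRPS13* was called (-0.75, limma adjusted p = 0.018). The sign of the median in polysome RNA therefore rested on single libraries. *PSRP3/1* and *PRPL28* were low in AA replicate 3 alone, *PSRP3/1* with 3006 against 6551 and 7658 and *PRPL28* with 763 against 2306 and 2556.

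A TE change is the log2 change in polysomes less that in monosomes. After AA the estimate was below 0 for 32 of the 38 genes, against 46.4% of all genes, with a median of -0.40 against 0.04. By limma 1 of the 38 genes was called, and lower. Over all 21769 genes, 0.786% were called lower and 0.101% higher. The gene was *PRPL11*, with a TE change of -1.02 ± 0.23 SE (limma adjusted p = 0.045). Its adjusted p was 0.15 without AA replicate 1, 0.060 without AA replicate 3, and 0.19, 0.29 and 0.19 without CK replicates 1, 2 and 3. *PRPL12A* (-1.03 ± 0.25 SE, limma adjusted p = 0.058) and *PSRP3/1* (-1.33 ± 0.32 SE, limma adjusted p = 0.062) had estimates of like size that did not pass. An alternative fit that paired fractions of the same number called more of the 38 genes lower, these 2 and *PRPL11* among them. Over all genes that fit called 470, against 193 in the main fit. At an unadjusted p under 0.05, 15 genes were lower, against 6.67% of all genes, and *PSRP5* was higher (0.79 ± 0.24 SE, limma adjusted p = 0.16), against 5.19%. The polysome to monosome ratio of the 38 genes relative to all genes had medians of 0.49, 0.94 and 0.97 in AA replicates 1, 2 and 3, below the 1.14, 1.11 and 1.07 of CK. Across the 38 genes, the log2 change in monosome RNA and the polysome to monosome ratio in CK correlated (Pearson's r 0.56, Spearman's rho 0.40), where both measures contain the CK monosome values.

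In monosome RNA after AA the median log2 change was 0.31 for the core large subunit (range -0.12 to 1.07) and 0.36 for the core small subunit (range 0.07 to 0.68), a difference of -0.05. The subunits also moved together from library to library. Relative to all genes, the core large subunit lay at -0.13, 0.10 and -0.01 in CK and at 0.30, 0.49 and 0.26 in AA monosome libraries. The core small subunit lay at -0.10, 0.10 and -0.02 in CK and at 0.27, 0.55 and 0.28 after AA. In both subunits each AA library was above each CK library. The difference between the subunits within a library had an SD of 0.05 over the AA and of 0.02 over the CK libraries in monosome RNA. In polysome RNA, where the median changes were -0.12 and -0.11, these SDs were 0.17 and 0.05. The median TE change was -0.38 for the core large subunit, -0.56 for the core small subunit and 0.03 for the PSRPs. These are descriptions of the chosen genes and were given no test.

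**Figure D5:**
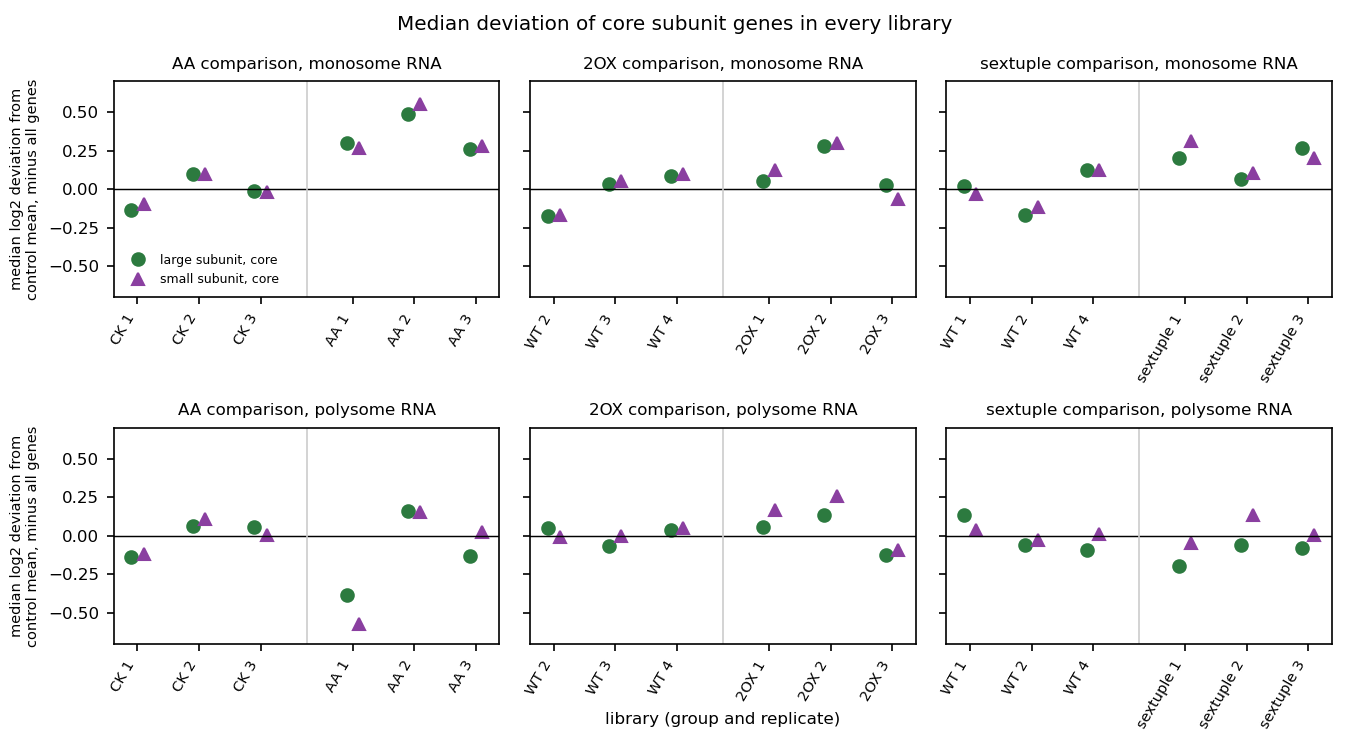
Median log2 deviation from the control mean, minus that of all genes, of the core large-subunit (circles) and core small-subunit (triangles) genes in every library of the 3 comparisons (columns), in monosome (top) and polysome RNA (bottom). Both subunits lie at 0.26 to 0.55 in the AA monosome libraries, and AA polysome replicate 1 lies at -0.39 and -0.57.

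Other markers moved with AA as well. The root gene *PYK10*, a beta-glucosidase, rose from 8334 to 10246 in CK to 15772 to 18611 in AA monosome RNA (log2 change 0.92, limma adjusted p = 0.00011). The root hair genes *EXPA7* and *COBL9* fell there, with log2 changes of -2.25 and -2.77 (limma adjusted p = 4.5e-05 and 0.033), and *EXPA7* fell in polysome RNA with -1.84 (limma adjusted p = 0.0047). No leaf marker was called. *AOX1a*, the alternative oxidase induced by a block of complex III, rose in polysome RNA (0.86, limma adjusted p = 0.0044) and had an estimate of 0.39 in monosome RNA (limma adjusted p = 0.10). Its rise was not particular to AA, since it also rose in polysome RNA of *2OX* (1.07, limma adjusted p = 0.0081). In the sextuple mutant it was not called there (0.05, limma adjusted p = 0.93). *ASN1*, an asparagine synthetase induced in the dark, rose in both fractions (0.73 and 0.88). The part of these shifts in the results of the plastid ribosomal protein genes was not tested, and in whole seedlings fewer cells of a type and less RNA per cell cannot be told apart.

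Some values may hold reads of neighbouring genes, since it is not stated whether the counting used strand. In the TAIR10.1 annotation, 16 of the 40 genes overlap another gene, 15 of them a gene on the opposite strand. Among those called, *PRPL12A* shares 440 bases with *AT3G27831*, *PRPL18* 312 bases with *AT1G48355*, *PSRP3/1* 160 bases with *AT1G68585*, *PSRP5* 73 bases with *AT3G56900* and 179 with an antisense RNA, *PRPL15* 76 bases with *AT3G25910*, *PRPS6* 36 bases with *AT1G64520* and *PRPL31* 11 bases with *AT1G75340*, while *PRPL5* shares 29 bases with a gene on its own strand. *AT1G64520* itself rose in monosome RNA after AA, from 2622 to 2947 in CK to 3768 to 4277 (log2 change 0.53, limma adjusted p = 0.0039), beside the 0.65 of *PRPS6*, and its part in that value was not tested. Of the 23 tested genes without an overlap, 8 were called higher in monosome RNA after AA and their median change was 0.32, as for the whole set. This count was chosen after the values were seen.

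Median changes in monosome RNA after AA differed little between genes with and without the promoter elements, and the differences were not tested. Matches were taken from the same windows, which reach past the start. In monosome RNA the 18 tested genes with site II had a median log2 change of 0.32, with 7 called higher, and the 20 without had a median of 0.26, with 8 called higher and 1 lower. With the I-box the median was 0.30 over 17 genes, 6 higher and 1 lower, and without it 0.34 over 21 genes, 9 higher. Over all genes of the fit, 11.6% were called higher and 10.4% lower. The median TE change was -0.48 with site II and -0.35 without it, and -0.26 with the I-box and -0.49 without it. *PRPL19.1*, with 5 site II matches, had an estimate near 0 (-0.12), while *PRPS5* and *PRPS10*, with 3 each, were called.

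Other nuclear genes of plastid translation, 24 initiation, elongation and release factors, GTPases, helicases and RNA-processing proteins, had a median change of 0.02 in monosome RNA after AA over 23 tested genes. Of these, 2 rose, where 11.6% of all genes of the fit were called higher and 10.4% lower. *SVR3*, a TypA-like GTPase, rose from 1899, 1679 and 1997 to 2640, 2738 and 2679 (0.53 ± 0.12 SE, limma adjusted p = 0.0041), and the RNA helicase *RH39* rose by 0.47 (limma adjusted p = 0.019). In polysome RNA 0 of 23 were called (all genes, 8.48% higher and 10.4% lower) and the median was 0.12. Of 124 genes of cytosolic ribosomal proteins, 2 rose and 7 fell in monosome RNA (median -0.06), and of 48 of mitochondrial ribosomal proteins 3 rose and 1 fell (median 0.03). The median of the plastid ribosomal protein genes in that fraction (0.31) was above those of the 3 other sets, which is a description without a test.

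In *2OX* no member was called in either fraction. By limma 0 of 38 were called in monosome RNA, in polysome RNA and for TE, and 0 had an unadjusted p under 0.05 in any of the 3 fits. Called higher and lower over all genes were 0.0611% and 0.0255% of 19637 in monosome RNA, 0.146% and 0.0252% of 19873 in polysome RNA, and 0.00486% and 0% of 20597 for TE. An unadjusted p under 0.05 was found for 2.26% higher and 2.64% lower in monosome RNA, 2.95% and 2.81% in polysome RNA, and 1.01% and 0.636% for TE. The median log2 change was 0.11 in monosome RNA, 0.05 in polysome RNA and -0.05 for TE. With each library left out these medians ran from 0.0085 to 0.17, from 0.018 to 0.15 and from -0.13 to 0.06, so that the sign for TE rested on single libraries. Estimates lay between -0.16 and 0.30 in monosome RNA and between -0.13 and 0.29 in polysome RNA, with SEs of 0.12 to 0.26. Over the 95% intervals of the 38 single genes, the outermost bounds were -0.71 and 0.66 in monosome RNA and -0.49 and 0.68 in polysome RNA. How small a change could be detected with 3 libraries a group was not tested. The groups did not overlap in 2 genes of monosome RNA (all genes, 4.95% higher), *PRPL15* with 4395, 4713 and 5370 in wild type and 5423, 5747 and 5431 in *2OX*, and *PRPS5* with 2255, 2270 and 2545 in wild type and 2895, 2850 and 2949 in *2OX*. In polysome RNA they did not overlap in *PSRP3/2* alone (all genes, 5.36% higher). The medians were 0.13 for the core large and 0.12 for the core small subunit in monosome RNA and 0.04 and 0.10 in polysome RNA. In the 3 *2OX* polysome libraries the core large lay below the core small subunit by differences of -0.11, -0.12 and -0.03, and in wild type the differences were 0.06, -0.07 and -0.01, within which the third *2OX* library lay. Of the other genes of plastid translation, the RNA helicase *RH22* rose in polysome RNA, from 314, 337 and 318 to 707, 625 and 732 (1.09 ± 0.15 SE, limma adjusted p = 0.0050).

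For the sextuple mutant against wild type, 0 of 38 genes passed the limma test in any of the 3 fits. Over all genes, 0.0503% were called higher and 0.0503% lower of 19892 in monosome RNA, 0.0547% and 0.0945% of 20110 in polysome RNA, and 0 of 20800 for TE. In monosome RNA the median log2 change was 0.15 and the estimate was above 0 in 33 genes, against 47.3% of all genes. The groups did not overlap in 10 genes, all higher (all genes, 5.06%), and 6 genes had an unadjusted p under 0.05, all higher (all genes, 2.47% higher and 3.13% lower). *PRPS5* had the largest estimate, with 3070, 2672 and 2974 in wild type and 4526, 3250 and 4453 in the mutant (0.47 ± 0.15 SE, limma adjusted p = 0.57). *PRPL11* had 1745, 1956 and 2228 in wild type and 2265, 2815 and 2526 in the mutant (0.36 ± 0.15 SE). In both genes the nearest libraries of the groups lay close together.

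In polysome RNA of the sextuple mutant the median was -0.06. The groups did not overlap in 3 genes that were higher and 8 that were lower (all genes, 7.27% and 7.97%), and 2 and 6 had an unadjusted p under 0.05 (all genes, 4.19% and 5.83%). *PRPL19.1* had 8811, 6669 and 5993 in wild type and 4468, 5116 and 5848 in the mutant (-0.47 ± 0.15 SE, limma adjusted p = 0.33), with wild-type replicate 1 above all others. *PRPL34* (-0.47 ± 0.16 SE) and *PRPL29* (-0.45 ± 0.16 SE) had estimates of like size. *PSRP2* had 5732, 5829 and 6568 in wild type and 7701, 8132 and 7555 in the mutant, a log2 change of 0.37 ± 0.12 SE (limma adjusted p = 0.33), with each mutant library above each wild-type library. The TE estimate was below 0 in 31 of 38 genes (all genes, 48.4%), with a median of -0.30, and 7 genes had an unadjusted p under 0.05, all lower (all genes, 1.77% lower and 1.78% higher). The largest was *PRPL21*, whose protein contacts 23S ribosomal RNA in bacteria, with -0.66 ± 0.19 SE (limma unadjusted p = 0.0022, adjusted p = 1.0).

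By subunit, the medians in the sextuple mutant were 0.15 for the core large and 0.19 for the core small subunit in monosome RNA. In polysome RNA they were -0.08 and 0.04, a difference of -0.12, where the difference between the subunits within a library had an SD of 0.06 over the mutant and of 0.10 over the wild-type libraries. In each of the 3 mutant polysome libraries the core large subunit lay below the core small subunit, with differences of -0.15, -0.20 and -0.09, while in wild type the differences were 0.10, -0.03 and -0.10. Wild-type replicate 4 thus lay within the range of the mutant. For TE the medians were -0.31 and -0.16.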

How the data were processed

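The authors deposited an adjusted signal per gene and library in 6 tables, a monosome and a polysome table for each of the 3 comparisons, over 32 libraries. Their submitters' notes name Bowtie 0.12.2 and TAIR10; the counting tool, the use of strand and the adjustment are not given in the sources used here. The values are not whole numbers, so the depth in reads is unknown and no counting interval was given. The deposited fold changes, p-values and VIP scores of the authors' own comparisons were not used. Tables were scaled separately and show relative, not absolute, RNA amounts.

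The planned count test was replaced by limma 3.58.1 (R 4.3.3, lmFit and eBayes with a trend) on log2(value + 1), since the values were no counts. Fold changes are on this scale and understate changes of low genes. Genes reaching a value of 10 in 3 or more libraries were fitted, and two-sided p-values were adjusted by Benjamini-Hochberg over all genes of the fit (threshold 0.05). TE was the interaction of group and fraction. Scripts were tested on simulated data. With 3 libraries against 3, an exact permutation test of a single value cannot go below a two-sided p of 0.1, and none was used. Levels per kilobase used transcript lengths, and promoters the annotation, of RefSeq's TAIR10.1. Python 3.11.15, pandas 2.3.3, numpy 2.4.6 and matplotlib 3.10.9 were used.

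The set of genes, whose members follow from their identifiers, and the lists of other genes were chosen with earlier results of these data known. Values per library are given for genes called in any fit, the 3 core genes of each subunit with the largest change in AA polysome RNA, duplicated genes, PSRPs, the highest and lowest genes per length, and others singled out after their values were seen. Alternatives were the pseudocount, the filter, the scaling, the replicate block and each library left out.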

Additional observations from a re-analysis of the deposited data

Results flagged for a closer look

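*PRPL11* was noted because its change with AA differed between the fractions by a test of the difference itself: polysome minus monosome change was -1.02 on the log2 scale (SE 0.23, limma adjusted p = 0.045). That call was lost in 7 alternative settings and kept in 4. *PRPL6* and *PRPL18* were noted because each polysome library of the *2OX* and of the sextuple mutant lay on opposite sides of its wild-type mean. The log2 change of *PRPL6* was 0.046 in *2OX* but -0.21 in the sextuple line, and that of *PRPL18* was 0.11 and -0.063. These differences between the lines were not tested, the tables were scaled separately, and the comparisons share wild-type replicates 2 and 4. Both genes were picked by their values, and the share of all genes that meet the same rule is not given. The pattern can therefore not be read as particular to them.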

How the results depend on the processing

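The count of 16 called genes in AA monosome RNA was 17 with a pseudocount of 10, 15 without the filter, 12 after scaling to the upper quartile and 8 with quantile normalization, of which 7 were among the 16. It was 11 to 16 with each library left out, 14 without duplicated genes, and 8 over the 23 genes without an overlapping gene, where fewer genes were counted. The last 2 settings were chosen after seeing the data. *PRPL12A*, *PSRP3/1*, *PRPL11*, *PRPS6*, *PRPL35*, *PRPS21* and *PSRP5* kept their call under quantile normalization. In AA polysome RNA the count of 0 became 1 at most, and only with a library left out (0 to 1). For TE after AA the count of 1 was 0 without the filter and 0 after scaling to the upper quartile (*PRPL11*, adjusted p = 0.051 in both), and 0 to 3 with each library left out. In *2OX* and the sextuple mutant the counts stayed at 0 in all 3 fits under every alternative run. Per kilobase of coding length, the log2 ratio of large-subunit to small-subunit levels, taken in each CK library and averaged, was 0.13 in monosome and 0.10 in polysome RNA, against 0.35 and 0.17 per kilobase of transcript. The cause of these shifts was not tested.

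In the main fits, replicate numbers were not taken to pair the libraries. Deviations from group means of the fractions with the same number correlated at 0.03 to 0.30 and those of same-numbered groups at -0.07 to 0.08. The polysome to monosome ratios did use libraries of the same number. With the replicate block, 22 genes were called in AA monosome RNA and 0 in polysome RNA, and 8 had a lower TE (*PSRP3/1*, *PRPL12A*, *PRPL11*, *PRPL3*, *PRPL35*, *PRPS21*, *PRPS13* and *PRPL15*), while the counts in *2OX* and the sextuple mutant were 0. Over all genes the block moved the calls after AA from 4645 to 5712 in monosome RNA and from 193 to 470 for TE, in *2OX* from 17 to 10 in monosome and from 34 to 9 in polysome RNA, and in the sextuple mutant from 20 to 97 and from 30 to 173. Of the values of single genes under these settings, 215 kept direction and side of the threshold, 36 lost the call and 2 gained it, and none changed sign. The 215 include genes of AA polysome RNA without a call in the main fit, which stayed without one. All 36 losses were among genes called in AA monosome RNA or for TE, and the 2 gains were *PRPL31* and *PRPS13* in AA polysome RNA.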
